A study of Mus musculus with 2 samples.

Results

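Mef2a, Mef2c, Mef2d, Six4, Eya1, Eya2, Pax3, Pax7 and Srf encode transcription factors and transcriptional cofactors of the skeletal muscle programme. The 9 genes were listed by name, with earlier results of these data known. Every array probe that is not a control and whose gene name is that of a member was taken, whatever its value. This gave 16 of the 41174 distinct probes on the array, in 25 spots. Of these, 12 probes of 7 genes were bright enough to be tested, against 27005 probes and 18065 genes tested in all. The probes of Eya2 and Pax3 were not, and their readings are given below without a test.

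MEF2 proteins are MADS-box factors that bind an A/T-rich site and activate muscle genes together with MyoD-family factors, and in myoblasts their activity is held down by class IIa histone deacetylases. SRF, another MADS-box protein, binds the CArG box and is switched between growth-response and contractile genes by its cofactors. Six4 encodes a homeodomain protein that binds the MEF3 site with EYA proteins as coactivators, and PAX3 and PAX7 are paired-box factors that mark muscle progenitors and act upstream of Myf5 and Myod1.

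The cells were C2C12, an established line of mouse myoblasts from adult leg muscle of strain C3H that can form myotubes in culture. Knockdown cells stably expressed a short hairpin RNA (shRNA) against Mybbp1a, which encodes a nucleolar protein known as a transcriptional co-repressor; control cells stably expressed a control shRNA. Both were mixed stable clones kept subconfluent in medium with 20% fetal bovine serum, a medium for growth. Both RNAs were hybridised together on each of 2 arrays, 1 per biological replicate, with the knockdown always in Cy5 and the control always in Cy3. Without a dye swap, a dye effect on a probe and an effect of the knockdown cannot be told apart. Slide and replicate are likewise the same. Whether the replicates were separate cultures or clone pools is not given in the labels, so p-values cover the spread of this array pair alone, and that spread could be technical.

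Values are log2 ratios of knockdown over control after background correction and loess normalization, a smooth correction of each array for brightness; 0 means equal signal. The knocked-down gene itself, Mybbp1a, read -1.64 and then -1.91 on the arrays, with a mean of -1.78 ± 0.19 (SD, n = 2), a level 3.42-fold lower in RNA labelled knockdown (limma adjusted p = 0.176). No tested gene passed an adjusted p of 0.05: limma called 0 of 18065 genes higher and 0 lower, while 2414 were higher and 1353 lower where the p was left unadjusted at 0.05. A call was also 0 in either direction by limma under the other settings, except when each array was centred on its median in place of loess, which called 3031 genes higher and 58 lower and set the median of all genes at 0.21 instead of 0.03. An exact sign-flip test over 2 arrays cannot give a two-sided p under 0.5. Between 64.9% and 79.7% of spots were well above background, depending on array and channel, and the small number of arrays limits the precision of every value below.

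The labelled cell type was checked against marker genes. All 6 myoblast markers were tested, and their summed normalized level was 139584 and 121555 in knockdown cells and 144921 and 123891 in control cells on arrays 1 and 2. Taken singly, 3 of them were higher on both arrays, 1 was lower and 2 had opposite signs. Their median log2 ratio was 0.15, with -0.01 on array 1 and 0.29 on array 2. Fibroblast markers moved with the knockdown: the 4 that were tested of 6 (Col1a1, Col3a1, Pdgfra and Dcn) were higher on both arrays, with a median log2 ratio of 1.33 and summed levels of 184471 and 225889 in knockdown against 104468 and 56996 in control cells, while Thy1 and Tcf21 were not well enough above background to be tested. Myotube markers, 6 of 7 tested with Myh8 below the limit, summed to 3031 and 2146 in knockdown and 1882 and 1879 in control cells. Endothelial markers, 2 of 5 tested, were both higher on both arrays, with a median log2 ratio of 0.52. Of the smooth muscle markers 4 of 5 were tested, 2 higher, 1 lower and 1 of opposite sign, with a median of 0.25. The medians were 0.04 for 5 neural and Schwann markers, -0.05 for 3 adipocyte markers and 0.02 for 3 leukocyte markers. The part of any marker group in the ratios below was not tested. In such bulk RNA, fewer cells of a type and less RNA per cell cannot be told apart.

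The probes are 60 bases long, and genes with several probes were read at places that share no sequence. The first 30 bases of 9 probes are shown, those of the 3 genes with more than 1 tested probe (Mef2d, Mef2a and Eya1) and that of Srf; all are written 5′ to 3′ in lower case, since no motif within them is at issue.
Mef2d A_51_P394676: aaacttgacaatcacccacactcctggctc
Mef2d A_51_P504672: cagagcctgaggctgagggctcagctgtga
Mef2d A_52_P334052: tgcactcagcctgttttctttcccacctga
Mef2a A_52_P175157: tcaggggtttgttctaaaagaacaatacat
Mef2a A_52_P290579: tcgtaagataaagtttttgcagagaaacgt
Mef2a A_52_P311841: agaaagcccttctgtaaaacgcatgaggat
Eya1 A_52_P36315: aaatggccagtgttgagacctcttcatttg
Eya1 A_51_P375378: atccagtgaaagtaagccatgagaatgttc
Srf A_51_P100289: ggtgtatccctaattaagtgcctctagggg

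Positions are on mouse build mm8, as the array files give them. The Mef2d probes lie on the plus strand of chromosome 3, A_51_P394676 at chr3:88257782-88257841 and A_51_P504672 at chr3:88254219-88254565, where its 60 bases are spread over 347. The third, A_52_P334052 at chr3:88254330-88254389, falls wholly inside that span, and 3216 bases separate the span from A_51_P394676. The Mef2a probes are on the minus strand, A_52_P175157 at chr7:67110637-67110696, with A_52_P290579 at chr7:67113462-67113521 and A_52_P311841 at chr7:67113807-67113866, which lie 2765 and 3110 bases away from it. The Eya1 probes, also on the minus strand, are 1519 bases apart, A_52_P36315 at chr1:14154286-14154345 and A_51_P375378 at chr1:14155865-14155924. Srf is read on the minus strand at chr17:46010185-46010243. No annotation of mm8 was used here, so the exon or untranslated region that each probe reads is not stated.

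None of the 7 tested members was called (limma, 0% of all genes called), and each gene is represented by its brightest tested probe. Mef2a, Mef2d, Six4, Pax7 and Srf, 5 of the 7, were higher in knockdown cells on both arrays, a pattern that 40.6% of all tested genes had. None was lower on both arrays, against 29.4% of all genes. Mef2c and Eya1 had opposite signs on the arrays, as did 30% of all genes. The members' median log2 ratio was 0.20, with 0.05 on array 1 and 0.33 on array 2, beside a median of 0.03 for all genes, whose 10th and 90th percentiles were -0.27 and 0.41. At an unadjusted p under 0.05, limma had 2 members higher, Mef2d and Srf, and 0 lower, where 13.4% and 7.49% of all genes were. No member reached 2-fold on both arrays; 0.631% of all genes did in the higher direction and 0.0554% in the lower.

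Counted over probes, the picture was more mixed than over genes. Of the 12 tested member probes, 5 were higher on both arrays, 3 were lower on both and 4 had opposite signs, beside 37.9%, 32.1% and 30% of all tested probes. With median centring the same probes counted 10 higher, 0 lower and 2 of opposite sign, in a setting that put 61.9% of all tested probes higher on both arrays, 14.6% lower and 23.5% at opposite signs. The spread between the arrays was uneven too: Pax7, Srf and Mef2d differed by 0.02, 0.07 and 0.11 between arrays, less than the median of 0.15 over all genes. Mef2a, Six4, Mef2c and Eya1 differed by 0.23, 0.31, 0.60 and 0.77.

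**Figure D1:**
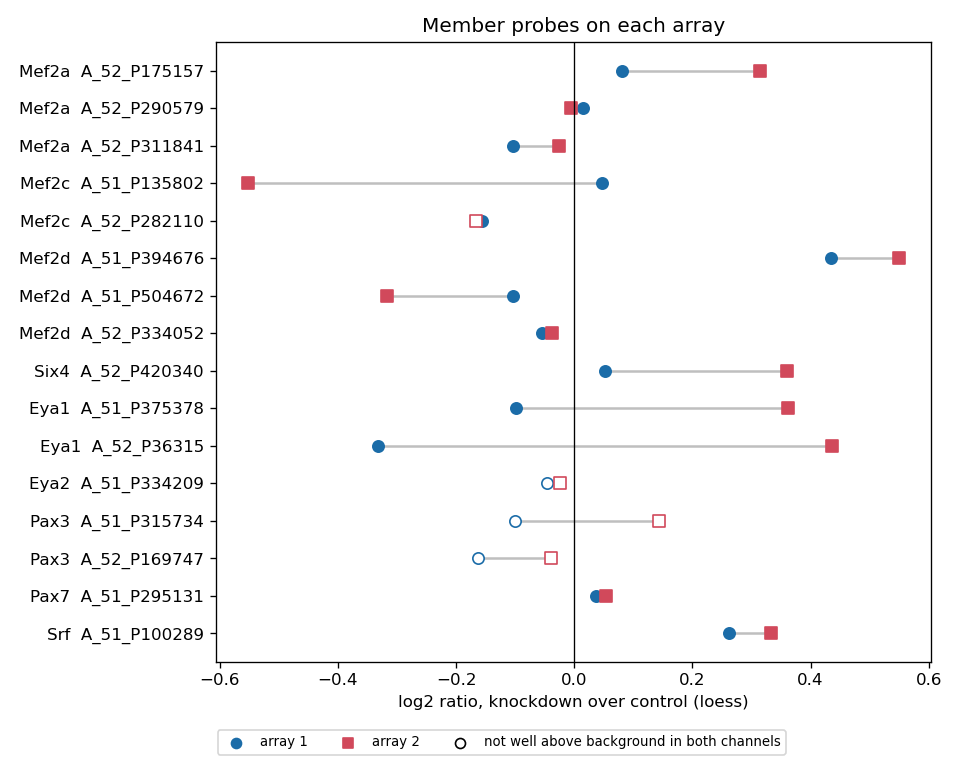
Log2 ratio of knockdown over control (x axis) for each of the 16 member probes on array 1 (circles) and array 2 (squares); open symbols are probes not well above background in both channels of that array, and lines join the arrays. The brightest Mef2d probe stands at 0.44 and 0.55 while the other Mef2d probes lie below 0. The lines that cross 0 are those of both Eya1 probes, Mef2c A_51_P135802, Mef2a A_52_P290579 and Pax3 A_51_P315734.

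Mef2d had the highest mean ratio of the tested members, on its brightest probe. Probe A_51_P394676 had signals of 28669.5 in knockdown and 8339 in control cells on array 1, and 24763 and 6229 on array 2, before the correction for dye and brightness. After it, the log2 ratios were 0.44 and 0.55, both above 0. Their mean was 0.49 ± 0.08 (SD, n = 2; SE 0.086; 95% interval 0.24 to 0.75), a 1.41-fold higher level that limma did not call (adjusted p = 0.182, and between 0.0300 and 0.604 over the other settings). Of all tested genes, 7.23% had a mean at least as high.

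The other Mef2d probes read the opposite way. A_51_P504672, with signals of 753 and 371 on array 1 and 747 and 368 on array 2, had log2 ratios of -0.10 and -0.32 and a mean of -0.21 ± 0.15 (SD, n = 2; limma adjusted p over probes = 0.315). A_52_P334052, the probe inside its span, had signals of 421 and 209 on array 1 and 843 and 341 on array 2, and log2 ratios of -0.05 and -0.04. Both thus stood below 0 on both arrays after loess, whereas with median centring A_51_P504672 read 0.10 and -0.11 and A_52_P334052 read 0.06 and 0.17. The gap between probes held its direction under each scaling: the brightest probe exceeded A_51_P504672 by 0.54 and 0.87 and A_52_P334052 by 0.49 and 0.59, and with median centring by 0.74 and 0.93 and by 0.77 and 0.65. On Agilent's processed signals these gaps were 0.53 and 0.86, and 0.51 and 0.59. The smaller of the Mef2d probe ranges was 0.54, on array 1. A range of at least that size on both arrays was found in 3.14% of the 6139 genes with more than 1 tested probe. A gene with a probe higher on both arrays and another lower on both was less rare, at 16.6% of them. Averaging the 3 probes moved the Mef2d mean from 0.49 to 0.08. The part of signal strength in the gap was not tested.

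Mef2a, the family member expressed most broadly across tissues, showed a smaller version of the same split. Its brightest probe, A_52_P175157, had signals of 6432 in knockdown and 2552 in control cells on array 1 and of 6372 and 1924 on array 2. The log2 ratios were 0.08 and 0.31, above 0 on both arrays but differing by more than the smaller of them. The mean was 0.20 ± 0.17 (SD, n = 2; 95% interval -0.11 to 0.50; limma adjusted p = 0.360). Probe A_52_P290579 read 0.01 and -0.01 and probe A_52_P311841 read -0.10 and -0.03; with median centring they read 0.21 and 0.21, and 0.09 and 0.18. Averaged over its 3 probes, Mef2a had a mean of 0.05. Its probes ranged over 0.18 on array 1 and 0.34 on array 2. A range at least as large as the smaller of these on both arrays was common, found in 36.0% of the genes with several probes.

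Mef2c, the family member that is strongly induced when myoblasts differentiate, had the lowest mean ratio, and its arrays disagreed. On probe A_51_P135802, at chr13:84141092-84141151, the signals were 684 and 308 on array 1 and 732 and 422 on array 2. The ratio was 0.05 on the first array and -0.55 on the second, so that the negative mean of -0.25 ± 0.42 (SD, n = 2; 95% interval -0.79 to 0.29) came from array 2; limma's adjusted p was 0.485. The gap of 0.60 between the arrays was reached by 6.96% of genes. A further Mef2c probe, A_52_P282110, was well above background on array 1, with a log2 ratio of -0.16, and in neither channel on array 2, where its signals were 89.6 and 77.8 over local backgrounds of 49 and 43; it was not tested.

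Srf was the member whose arrays were close to each other and clear of 0 on its single probe. Its signals were 8489 in knockdown and 2957 in control cells on array 1, and 8585 and 2545 on array 2. The log2 ratios were 0.26 and 0.33. The mean of 0.30 ± 0.05 (SD, n = 2; SE 0.083; 95% interval 0.05 to 0.54) is a 1.23-fold higher level, which limma did not call (adjusted p = 0.207). With median centring Srf stood at 0.58 and was called (limma adjusted p = 0.0383, and up to 0.294 in other settings), as was Mef2d at 0.83 (limma adjusted p = 0.0300), in a setting that also called 3031 genes higher; the cause of that difference between the scalings was not tested. In that setting Mef2a stood at 0.47, Six4 at 0.44, Eya1 at 0.36, Pax7 at 0.19 and Mef2c at -0.06, none of them called by limma. After loess, a mean as high as that of Srf was found in 15.8% of genes.

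Srf is itself known as a gene with CArG boxes in its promoter, the sequence its own protein binds. The window from 100 to 41 bases before the Srf start, on the minus strand at chr17:46556203-46556262 of GRCm38.p6 in RefSeq's promoter table, is shown with its CArG boxes in capitals, because Srf and the genes SRF is known to drive are read side by side here.
Srf promoter: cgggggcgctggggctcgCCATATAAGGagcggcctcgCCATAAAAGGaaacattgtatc

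The 2 CArG boxes begin 82 and 62 bases before the start, and a search of both strands found a CArG box in 1.63% of the 32851 promoters of the same table. That table held 9 promoters of 6 members: Mef2a, Mef2c, Mef2d, Six4, Pax7 and Srf; Eya1, Eya2 and Pax3 were not matched. The members' entries are short windows around a start, chr17:46556113-46556412 for Srf, so sites further away were not searched. No CArG box was found in the promoter windows of the other 5 members. The MEF2 site was found in the Mef2a promoter only, starting 2 bases before the start, and in 3.19% of all promoters. The MEF3 core TCAGGTT was found in 1 of the 3 Mef2c promoters and in 1 of the 2 Six4 promoters, starting 248 and 97 bases before it, and in 4.07% of all. An E-box, CANNTG, was found in Mef2c promoters alone among the members, though 72.3% of all promoters hold one. A match is a run of letters and was not set against any measure of binding.

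**Figure D2:**
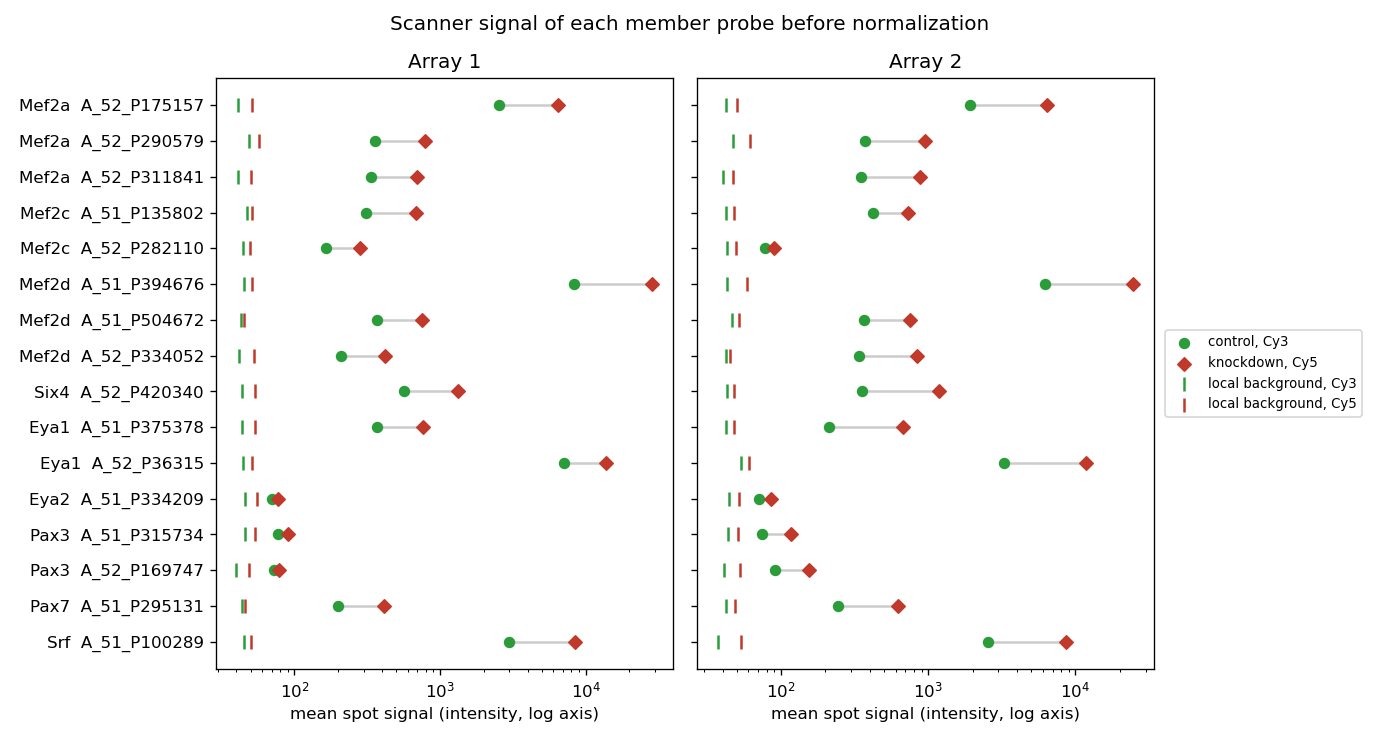
Mean spot signal before normalization (x axis, log scale) of each member probe in control cells (green circles, Cy3) and knockdown cells (red diamonds, Cy5) on each array, with ticks for the local background of each channel. Before loess, Cy5 exceeds Cy3 for each tested probe on both arrays, and the Eya2 and Pax3 probes lie close to their background ticks.

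Six4, a homeobox gene whose protein acts on muscle genes, was read by probe A_52_P420340 at chr12:74019460-74019519. Its signals were 1323 in knockdown and 563 in control cells on array 1, and 1183 and 357 on array 2. The log2 ratios were 0.05 and 0.36, so the mean of 0.21 ± 0.22 (SD, n = 2; 95% interval -0.14 to 0.55; limma adjusted p = 0.391) rested mostly on array 2. That interval includes 0 and does not show that the level was equal.

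Eya1, a coactivator of Six4 with phosphatase activity, had the widest gap between arrays of all tested members. Probe A_52_P36315 had signals of 13819.9 and 7058 on array 1 and 11838 and 3275 on array 2. It read -0.33 on the first array and 0.44 on the second, lower in knockdown cells on one and higher on the other. The mean of 0.05 ± 0.54 (SD, n = 2; 95% interval -0.61 to 0.72; limma adjusted p = 0.915) leaves changes of either sign possible. A gap of 0.77 or more was found in 4.09% of genes. The second Eya1 probe, A_51_P375378, had signals of 759.8 and 369.7 on array 1 and of 669 and 211 on array 2. It turned the same way, with -0.10 on array 1 and 0.36 on array 2. Both probes thus differed between the replicates in the same direction, and their range was 0.23 on array 1 and 0.08 on array 2. A range at least as large as the smaller of these on both arrays was found in 66.5% of genes with several probes. In the deposited value table the brighter probe was blank on array 2.

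Eya2, a further coactivator of the family, was not detected above background at its probe A_51_P334209, at chr2:165460466-165460525. Its signals were 77.5 and 70.5 on array 1, over local backgrounds of 55 and 46, and 85.2 and 70.8 on array 2, over 52 and 44. The log2 ratios of -0.05 and -0.02 come from these dim readings and give no measure of a change.

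Pax7, a marker of satellite cells and of their progeny before differentiation, was read by probe A_51_P295131 at chr4:139010525-139010584. Its signals were 414 in knockdown and 199 in control cells on array 1, and 623 and 242 on array 2. The log2 ratios were 0.04 and 0.05, the closest pair among the members. The mean of 0.05 ± 0.01 (SD, n = 2; 95% interval -0.19 to 0.29; limma adjusted p = 0.781) was near 0, and its direction depended on the scaling: on Agilent's processed signals and in the deposited value table it was -0.11. The interval holds changes in either direction.

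Pax3 was read by probe A_51_P315734, printed in 10 spots, and no spot without an outlier flag was well above background on either array. Leaving out spots with an outlier flag, 1 on array 1 and 2 on array 2, knockdown signals ran from 81.8 to 108 with a median of 91.1 on array 1 and from 106 to 122 with a median of 116 on array 2. Control signals ran from 72.1 to 83.6, median 77.4, and from 69.6 to 77.1, median 74.3. The median local backgrounds were between 43.5 and 54. The repeated spots give the precision of a single array for a dim probe: over 9 unflagged spots the log2 ratio was -0.10 (SD 0.07, range -0.26 to -0.03) on array 1, and over 8 it was 0.14 (SD 0.09, range 0.0045 to 0.24) on array 2. The spots of the arrays did not overlap, yet the sign differed between arrays. The median SD over spots of the 168 tested probes printed 10 times was 0.058 on array 1 and 0.044 on array 2. A second Pax3 probe, A_52_P169747, was well above background only in knockdown RNA on array 2, with 154 against 90.3 in control, and its log2 ratios were -0.16 and -0.04.

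For the tested member probes, Agilent's software gave each single-array log2 ratio an error of between 0.204 and 0.218. That error belongs to Agilent's own ratios, which were 0.38 and 0.45 for Mef2d probe A_51_P394676, -0.64 for Mef2c on array 2 and -0.14 and -0.07 for Pax7. After loess, the median of the 7 tested members was 0.05 on array 1 and 0.33 on array 2. The median of all tested genes was 0.03 on each array, and their ratios had an SD of 0.31 on array 1 and 0.43 on array 2. The part of that wider spread in the members' medians was not tested.

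**Figure D3:**
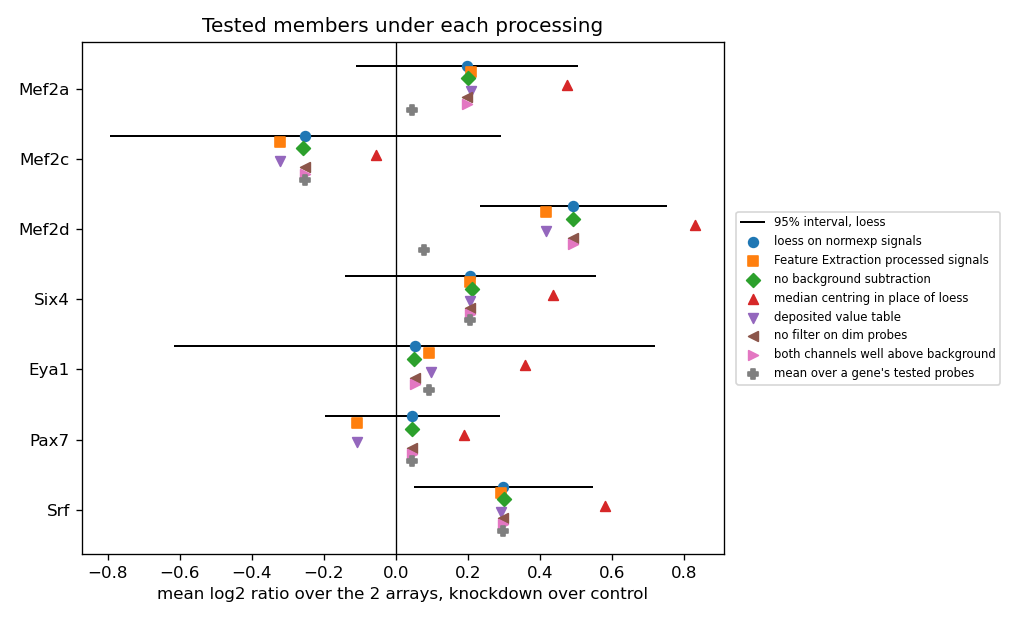
Mean log2 ratio of knockdown over control (x axis) of each tested member under each processing setting (symbols), with the 95% interval of the loess values (lines). Median centring lifts Mef2d to 0.83 and Srf to 0.58, the mean over probes brings Mef2d to 0.08, and Pax7 lies on either side of 0.

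The relatives of the members in the same gene families were mostly dim, and 7 of 15 were tested. Of these, 5 were higher on both arrays, 1 was lower and 0 were called by limma, with a median log2 ratio of 0.07. Beside this and the lists below, 40.6% of all tested genes were higher on both arrays after loess, 29.4% lower and 30% opposite. Eya3, another coactivator, had 0.13 and 0.24 on its brightest probe, while its others read 0.02 and 0.34, and -0.12 and -0.03. Pax5, a B-cell factor, read 0.29 and 0.85 on one probe and -0.03 and -0.03 on another. Mef2b was at -0.08 and -0.06, with a second probe at 0.05 and 0.09, and with median centring its mean turned to 0.10.

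Among the 6 cofactors and co-repressors of the Six4 protein and of EYA proteins, 4 were tested, 3 of them higher and 1 lower on both arrays, with 0 called by limma and a median of 0.29 that was 0.21 on array 1 and 0.38 on array 2. The Groucho-family co-repressors went apart. Tle4 had log2 ratios of 1.42 and 0.75, a mean of 1.09 ± 0.47 (SD, n = 2; limma adjusted p = 0.182), and Tle3 had 0.27 and 0.30. Tle1 stood at -0.51 and -0.47, a mean of -0.49 ± 0.02 (SD, n = 2; limma adjusted p = 0.182), and all 3 of its tested probes were below 0 on both arrays. With median centring Tle4 was at 1.23 and Tle1 at -0.20, so each kept its side of 0. Sobp read 0.15 and 0.46 on its brightest probe and -0.02 and -0.31 on another.

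The regulators of MEF2, a list of kinases, calcineurin subunits, deacetylases and coactivators, gave 20 tested genes of 22, of which 13 were higher on both arrays, 1 was lower and 6 had opposite signs. None was called by limma, 3 had an unadjusted p under 0.05, and the median was 0.19, with 0.09 on array 1 and 0.23 on array 2. Limma gave such a p to 13.4% of the whole tested set in the higher direction and to 7.49% in the lower. On Agilent's processed signals the split was 8 higher, 3 lower and 9 opposite, and with median centring it was 19, 1 and 0. Median centring split the whole tested set into 65.5% higher, 12.1% lower and 22.4% opposite. The highest was Camk2g, a calcium-calmodulin kinase subunit, at 0.18 and 0.82. Ppp3ca, the catalytic subunit of calcineurin, was at 0.38 and 0.46 with another probe at 0.59 and 1.21. Hdac7, a class IIa deacetylase, was at 0.17 and 0.53. Map2k5, which activates the kinase ERK5, was at -0.12 and -0.11, and its mean turned to 0.09 with median centring.

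Of 12 known MEF2 target genes 11 were tested, and 7 were higher and 3 lower on both arrays, with 0 called by limma and a median of 0.06. Nr4a1, an immediate-early nuclear receptor gene, had 0.56 and 0.94, a mean of 0.75 ± 0.27 (SD, n = 2). Myog, encoding myogenin, had 0.79 and 0.51, and Slc2a4, the insulin-responsive glucose transporter, 0.42 and 0.78. Below 0 were Xirp1, an actin-binding protein of muscle, at -0.07 and -0.55, Hspb7, a small heat-shock protein, at -0.10 and -0.06, and Smyd1, a muscle histone methyltransferase, at -0.05 and -0.06. With median centring the mean of Smyd1 turned to 0.22. The myotube markers given above include Myog, which therefore counts in both groups.

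Of the Srf cofactors, 6 of 8 were tested, 2 higher, 1 lower and 3 of opposite sign, with 0 called by limma and a median of 0.04 that was 0.09 on array 1 and 0.01 on array 2. With median centring 4 were higher, 0 lower and 2 of opposite sign, where 65.5% of all tested genes were higher and 12.1% lower. Hopx, an SRF inhibitor, was at 0.17 and 0.27. Mrtfb, an actin-regulated coactivator, was at -0.06 and -0.38 on its brightest probe. Elk4, a ternary complex factor, was at 0.06 and 0.17 on its brightest probe and below 0 on both arrays on its other 2 tested probes.

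All 26 SRF target genes on the list were tested, and they divided between the arrays: 9 were higher on both, 6 lower and 11 of opposite sign, with a median of 0.10 that was 0.20 on array 1 and -0.07 on array 2. None was called by limma, and 7 had an unadjusted p under 0.05. At that p, limma had 13.4% of all tested genes higher and 7.49% lower. With median centring 17 were higher, 1 lower and 8 of opposite sign. The shares of all tested genes in that setting were 65.5%, 12.1% and 22.4%. Fhl1, a LIM-domain protein of muscle, had 1.03 and 1.35, a mean of 1.19 ± 0.23 (SD, n = 2; limma adjusted p = 0.178), and Cnn1, the smooth muscle calponin gene, had 0.61 and 0.59. Fos, an immediate-early gene, had 0.25 and 0.78. Ccn1, a matrix protein gene, was at -0.33 and -0.64. Ier2, another immediate-early gene, was at -0.39 and -0.16, and its second probe at 0.02 and 0.03. Acta2, smooth muscle actin, was at -0.12 and -0.27 on its brightest probe, but 2 others read 2.07 and 1.92 on array 1 and -0.60 and -0.52 on array 2. The means of Ier2 and Acta2 on their brightest probes turned to 0.02 and 0.25 with median centring. Beside Fhl1 and Cnn1, the 4 tested fibroblast markers were higher on both arrays, and of the 6 tested myotube markers 4 were higher, 1 was lower and 1 had opposite signs; their part was not tested.

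Of the targets of Six4 and its family, 8 of 9 were tested, 3 higher, 2 lower and 3 of opposite sign, with 0 called by limma and a median of 0.13 that was 0.02 on array 1 and 0.29 on array 2. With median centring 6 were higher, 0 lower and 2 of opposite sign, where 65.5% of all tested genes were higher and 12.1% lower. Aldoa, the muscle aldolase gene, was the highest at 0.51 and 1.09, and its second probe read 0.31 and 0.95. Myog and Myf5, a myogenic factor gene also driven by PAX proteins, followed; Myf5 had 0.21 and 0.59. Gdnf, a neurotrophic factor gene, was at -0.05 and -0.48 and Ezr, encoding the membrane linker ezrin, at -0.02 and -0.01; with median centring the mean of Ezr turned to 0.51.

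PAX3 and PAX7 targets had 3 of 7 tested genes higher on both arrays, none lower and 4 of opposite sign, of 9 on the list, with 0 called by limma and a median of 0.08 that was 0.06 on array 1 and 0.15 on array 2. With median centring all 7 were higher, as were 65.5% of all tested genes. The 3 higher after loess were Myf5, Dmrt2 and Fgfr4. Dmrt2, a somite factor gene, was at 0.06 and 0.26. Fgfr4, a growth factor receptor gene of myoblasts, was at 0.20 and 0.03 on its brightest probe. The other tested Fgfr4 probes read 0.33 and 0.01, and -0.01 and 0.13. Myod1, the gene for MyoD, had -0.20 on array 1 and 0.36 on array 2. The sign of Myod1 thus differed between the arrays as those of Eya1 did.

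**Figure D4:**
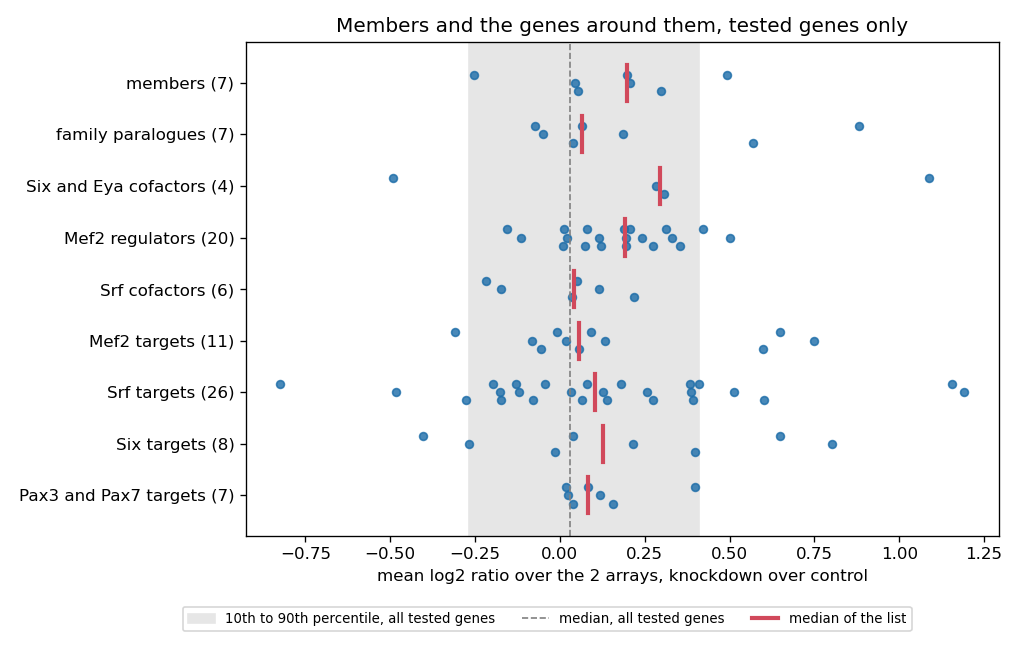
Mean log2 ratio of knockdown over control (x axis) of each tested gene (points) in the member group and in each list of related genes, with list medians (red bars), the median of all tested genes (dashed line) and their 10th to 90th percentile (grey). Most points lie within the grey band from -0.27 to 0.41, and among those outside it are Mef2d, Tle4 and Fhl1 above and Tle1 below.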

How the data were processed

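Labelled RNA of knockdown (Cy5) and control (Cy3) cells was read on 2 arrays. Per the submitters' processing notes and the file headers, the scanning software was Agilent Feature Extraction, version 9.5.3.1. The deposited files hold, per the file headers, each spot's mean intensity and its background, processed signals, a log10 ratio and its p-value from a single-array error model. The deposited value table held log2 ratios; rescaled, the log10 ratios matched 99.4% of them within 0.001, and the median was 0 on each array.

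Intensity was corrected with normexp (offset 50) and ratios by loess (span 0.3), with limma 3.58.1 in R 4.3.3. On each array 1639 control spots had weight 0 and were left out, with 154 and 237 outlier spots; spots of a probe were averaged. A tested probe was well above background, on both arrays, in 1 channel or more, and a gene was read from its brightest tested probe. Of 41174 probes, 23483 were named through their accession in RefSeq's table of GRCm38.p6, 6680 by current symbol, 2875 by synonym, and 8136 kept the file's name. limma was fitted over all genes, and again over all probes, with Benjamini-Hochberg adjustment, after the procedure was tested on simulated data. Summed marker levels are channel intensities after loess and Aquantile scaling.

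The members and the lists were chosen with earlier results of these data known. Besides all members, the text names from each list up to 3 tested genes with the highest and up to 3 with the lowest mean among those of 1 sign on both arrays, with Myog, Myod1 and Mybbp1a. A gene that this rule names is not reported here. Alternatives were Feature Extraction's processed signals, no background subtraction, median centring, the deposited table, other filters, the mean over probes and each array alone.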

Additional observations from a re-analysis of the deposited data

How the results depend on the processing

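The analysis was paired throughout, because the within-array ratio behind every value sets knockdown against control on the same array. That leaves no second group for a replicate block. The limma calls stayed at 0 except with median centring in place of loess, which called 3031 genes higher and 58 lower; there Mef2d was 0.83 (limma adjusted p = 0.0300) and Srf 0.58 (limma adjusted p = 0.0383). That setting put the list medians at 0.23 for family paralogues, 0.54 for Six4 and EYA cofactors, 0.34 for Srf cofactors, 0.43 for Mef2 regulators, 0.22 for Mef2 targets, 0.49 for Srf targets, 0.41 for Six4 targets and 0.33 for Pax3 and Pax7 targets. On the processed signals and in the deposited table, Pax7 reversed to -0.11, family paralogues had a median of 0.13 and Mef2 targets -0.027. There, 2 members, Mef2c and Pax7, were lower on both arrays, with Mef2c at only -0.0024 on array 1. With no filter on dim probes the 2 members lower on both arrays were others, Eya2 and Pax3, whose signals were close to background. The medians without that filter were -0.00017 for family paralogues, 0.17 for Six4 and EYA cofactors and 0.074 for Mef2 targets. Family paralogues had a median of 0.090 with no background subtraction and 0.11 with both channels required above background. The mean over probes gave 0.10 for family paralogues, 0.14 for Six4 and EYA cofactors and -0.028 for Srf cofactors. The cause of these differences was not tested.

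With 1 array left out, Mef2c ranged from -0.55 to 0.047, Eya1 from -0.33 to 0.44, and 1 member was lower on either array alone. The list medians ranged from 0.06 to 0.07 for family paralogues, 0.21 to 0.38 for Six4 and EYA cofactors, 0.01 to 0.09 for Srf cofactors, 0.09 to 0.23 for Mef2 regulators, 0.047 to 0.053 for Mef2 targets, -0.07 to 0.20 for Srf targets, 0.02 to 0.29 for Six4 targets and 0.06 to 0.15 for Pax3 and Pax7 targets. Calls have no value there, since 1 array leaves no residual degrees of freedom. Eya2 and Pax3 are limited by signal close to background.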
